A study of Mus musculus with 4 samples.

Results

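Cluster 5 was 1 of 17 RNA clusters that the study drew among the monocytes, macrophages and dendritic cells (DCs) of mouse spleen, a set it called the MoMacDC bundle. Its members were all cells with the deposited RNA cluster number 5, which made 583 of the 6075 cells of the bundle and of 11631 cells in all. Of these, 442 came from the steady-state library and 141 from the GM-CSF-conditioned one. The cells were splenocytes sorted for CD11b, the integrin carried by most myeloid cells, and each was read by CITE-seq, which counts RNA molecules as unique molecular identifiers (UMIs) and counts antibody tags bound to surface proteins on the same cell. The 5 tags were against Ly6C, CD115, MHC class II (MHCII), CD11c and CD301b. Steady-state mice received no cytokine, and conditioned mice received 3 once-daily subcutaneous injections of 10 µg of GM-CSF, with cells taken 24 hours after the last. The methods name C57BL/6 mice aged 8 to 12 weeks, the labels name no strain, and how many mice were pooled for each library is not given in the sources used here. With 1 library per condition no test was possible between conditions, so values are given with exact Poisson intervals for counts and exact Clopper-Pearson intervals for shares, both at 95% and covering counting error only. The cells of a cluster are not replicates, and because the RNA itself drew the clusters, RNA differences between clusters are descriptions. The tags took no part in the RNA clustering.

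Classical monocytes are short-lived blood and spleen cells that leave the bone marrow through the chemokine receptor CCR2 and carry high surface Ly6C. In inflamed tissue they can become macrophages or monocyte-derived DCs, which gain MHC class II and CD11c, and in the steady state some convert to patrolling, Ly6C-low non-classical monocytes. GM-CSF is a cytokine that acts on myeloid cells through a receptor made of an alpha chain and a shared beta chain and signals through STAT5.

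Cluster 5 formed 20.7% of the bundle in the steady state (442 of 2135 cells, interval 19.0 to 22.5%) and 3.58% after GM-CSF (141 of 3940 cells, interval 3.02 to 4.21%). Of all CD11b+ cells it made 9.16% of 4827 cells and 2.07% of 6804 cells. A share falls when other cells are added, and these files hold no cell number per spleen. In an earlier, all-cell clustering that the study also deposited, 581 of the 583 members lay in 1 cluster, MoMacDC_c1. The members held 3408193 UMIs in the steady state and 1008006 after GM-CSF, with a median per cell of 7494 and 6970 UMIs and of 2598 and 2371 genes. A count of 3 UMIs over the whole cluster corresponded to 0.880 CPM, the counts scaled to a fixed library total, in the steady state and to 2.98 CPM after GM-CSF. The median mitochondrial share was 3.61% and 5.64%, and the median sum of the 5 tags was 960.5 and 298 counts per cell. No member was called a doublet, and none of the 3 barcodes that the bundle had in both libraries belonged to cluster 5.

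The 3 defining genes of classical monocytes were present in cluster 5 of both libraries, at levels that differed. Ly6c2 (chr15:75108158-75111970, GRCm38), which encodes Ly6C, stood at 1248 CPM in the steady state and at 110 CPM after GM-CSF, rank 3 and rank 5 of the 17 clusters. Ccr2, the receptor that draws monocytes out of the marrow, stood at 966 and 659 CPM and ranked 7 and 3. F13a1, the A chain of coagulation factor XIII, stood at 612 and 39.7 CPM and ranked 3 and 4. So the label of a classical monocyte matched the steady-state members on all 3 genes, while after GM-CSF the level of Ccr2 was 1.47-fold lower (interval 1.35 to 1.60), that of Ly6c2 11.3-fold lower (9.39 to 13.8) and that of F13a1 15.4-fold lower (11.3 to 21.7). Ly6c1, a near-identical neighbour whose reads could be split from those of Ly6c2 by the counting, held 5 UMIs in the steady state and 0 after GM-CSF.

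**Figure D1:**
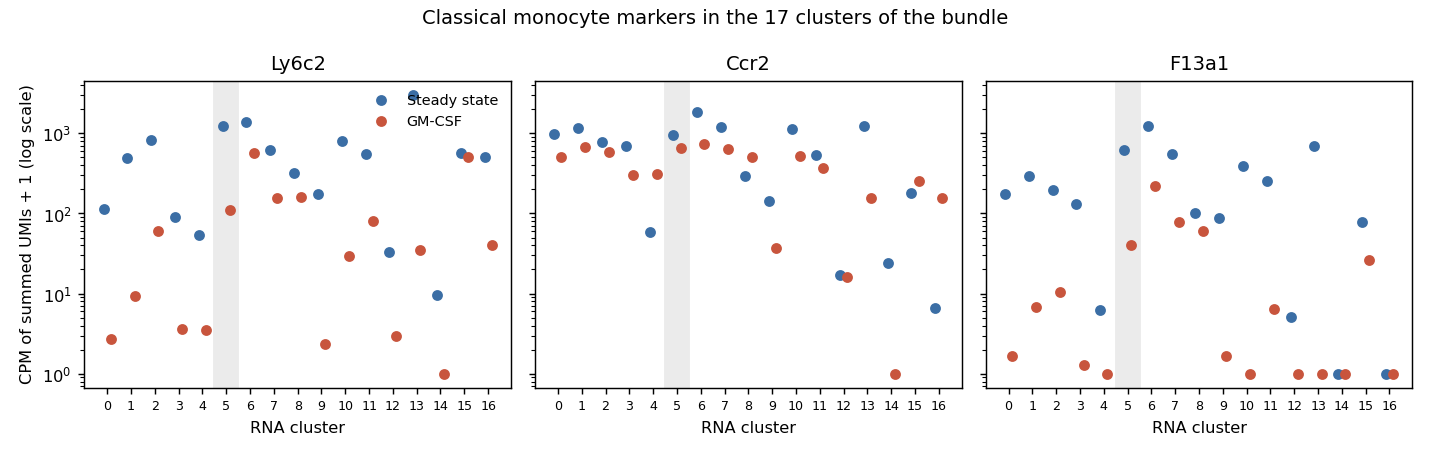
CPM of summed UMIs plus 1, on a log scale, of Ly6c2, Ccr2 and F13a1 in each of the 17 RNA clusters of the bundle in the steady state (blue) and after GM-CSF (red), with cluster 5 shaded and no error bars drawn. Cluster 5 lies at 1248 and 110 CPM of Ly6c2, and its points for Ccr2, 966 and 659 CPM, lie close together.

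Cell by cell, 92.5% of the steady-state members and 36.9% of the GM-CSF members had at least 1 UMI of Ly6c2. T cells of the same libraries reached 24.7% and 5.13% at lower median depths of 3747 and 2357 UMIs, but some T cells express Ly6C themselves, so these shares are no clean background for free RNA. Thinned to 1000 UMIs per cell, the shares were 57.7% and 12.8% in cluster 5 and 16.2% and 2.56% in T cells. For Ccr2 the share of members with a UMI was 92.5% and 90.1%, against 6.90% and 5.13% of T cells. For F13a1 it was 83.9% and 19.1%, against 1.15% of T cells in the steady state and 0 of 39 T cells (exact interval up to 9.03%) after GM-CSF.

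Genes of lymphoid and erythroid cells were scarce among the members, while the neutrophil, macrophage and plasmacytoid DC lists had more RNA. The summed level of the T cell list was 0.880 CPM in the steady state and 0 after GM-CSF, with Cd3e and Cd3d at 1 UMI each, and the erythroid list reached 2.35 CPM and 0. The B cell list stood at 16.7 and 7.94 CPM, of which Cd79b gave 15.3 and 4.96 CPM, and the NK cell list at 6.16 and 1.98 CPM. The conventional DC list stood at 29.3 and 9.92 CPM, of which Flt3 gave 26.1 and 3.97 CPM, while Zbtb46, a transcription factor of conventional DCs, had 0 UMIs in the steady state and 2.98 CPM after GM-CSF. The neutrophil list stood at 546 CPM (521 to 571) in the steady state and 248 CPM (218 to 281) after GM-CSF. It ranked 11 and 14 of the 17 clusters. The macrophage list stood at 354 and 361 CPM, rank 5 and 3, and the plasmacytoid DC list at 109 and 56.5 CPM, rank 12 and 8. Of the 5 plasmacytoid DC genes, 3 had 0 UMIs in the steady state and 4 had 0 UMIs after GM-CSF. Of the 16 other clusters, the most alike over log CPM of all expressed genes were cluster 6 (Pearson r = 0.970 across 9569 genes) and cluster 2 (r = 0.959) in the steady state, and cluster 2 (r = 0.949 across 10279 genes) and cluster 1 (r = 0.948) after GM-CSF. These correlations are across genes, which are not independent replicates. Depth also differed, with 2198249 UMIs in cluster 6 and 345298 in cluster 1 in the steady state, and 863357 and 3448700 after GM-CSF. The part of depth in this order was not tested.

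The surface tags placed cluster 5 between clusters 6 and 2 in Ly6C and MHCII. In the steady state the Ly6C tag had a median of 939 counts per cell in cluster 5 (quartiles 647 and 1312), 1272 in cluster 6, 713 in cluster 2 and 32 in cluster 4, a cluster with little Ly6c2. Taking every pair of 1 cluster 5 cell and 1 cell of the other cluster, the cluster 5 cell had the higher Ly6C tag in 62.3% of pairs with cluster 2 and in 33.1% of pairs with cluster 6, where 50% would mean equal levels. The MHCII tag ran the other way, with medians of 8 in cluster 5, 14 in cluster 2 and 6 in cluster 6, and the cluster 5 cell was higher in 33.0% and 58.3% of pairs. The cells of the clusters overlapped widely, as the quartiles of MHCII in cluster 5 (5 and 15) and cluster 2 (7 and 42.5) show.

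After GM-CSF the members carried less Ly6C tag and more of the other 4. The median Ly6C tag was 78 counts per cell (quartiles 48 and 127), against 77 in cluster 2 and 262.5 in cluster 6, and the cluster 5 cell was higher in 53.2% and 14.3% of pairs. The median MHCII tag was 84 (quartiles 38 and 134), against 100 in cluster 2 and 22 in cluster 6, and the cluster 5 cell was higher in 40.8% and 79.6% of pairs. CD115, the receptor for M-CSF, went from a median of 4 to 41 counts, and CD11c, an integrin of DCs, from 3 to 51. CD301b, a C-type lectin, went from 6 to 9. Because each condition had its own tag library and none of the 5 tags was an isotype control, tag counts of the 2 libraries are set side by side and not scaled to each other. In cluster 4 the CD115 tag also went from 4 to 39 and in cluster 2 from 6 to 43, so the higher CD115 counts were not seen in cluster 5 alone.

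**Figure D2:**
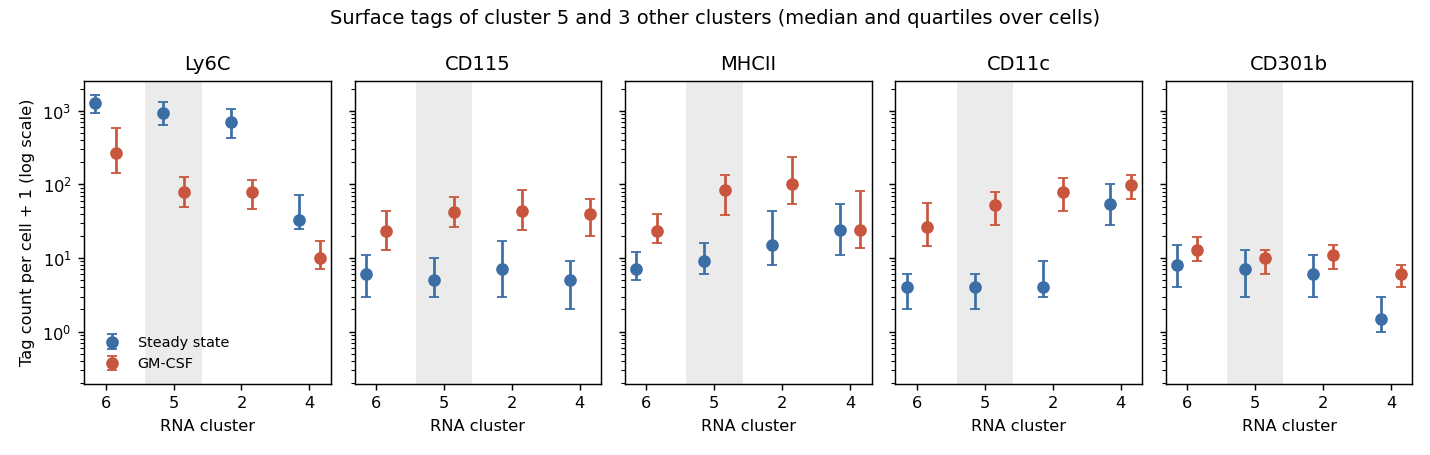
Median tag count per cell plus 1 on a log scale, with bars to the quartiles over cells, for the 5 surface tags in RNA clusters 6, 5 (shaded), 2 and 4, in the steady state (blue) and after GM-CSF (red). Cluster 5 falls between clusters 6 and 2 in Ly6C, at 939 counts, in the steady state, and has nearly the same Ly6C median as cluster 2 after GM-CSF (78 and 77).

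Within cluster 5, the Ly6C tag followed the RNA of its own gene, with a Spearman correlation across cells of 0.48 in each library. The cells of 1 library share its depth and free RNA, so these values describe the 2 libraries. The MHCII tag and H2-Aa, the alpha chain of the I-A molecule, had a correlation of 0.19 in the steady state, where 15.8% of members had a UMI of H2-Aa, and of 0.75 after GM-CSF, where 89.4% did. T cells had a UMI of H2-Aa in 3.45% and 17.9% of cells, the background of these shares. CD115 and Csf1r reached 0.14 and 0.13, CD11c and Itgax 0.10 and 0.30, and CD301b and Mgl2 0.06 and 0.13, with 1 UMI of Mgl2 in all among the steady-state members.

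Members with the most and the least Ly6C tag differed in genes the tag does not measure. Ranked by the tag and split into 3 parts of near-equal size, a split of a range and not of types, the upper part of the steady-state members (148 cells, at least 1172 counts) had 1744 CPM of Ly6c2 against 573 CPM in the lower part (147 cells, at most 718 counts). F13a1 was at 782 against 404 CPM, a ratio of 1.94 (interval 1.73 to 2.18). Ace, angiotensin-converting enzyme, which marks Ly6C-low monocytes, ran the other way at 101 against 311 CPM, 3.07-fold lower in the upper part (2.49 to 3.81). Cd74, the chaperone of MHC class II, was at 294 against 582 CPM. The upper part also had more UMIs per cell, with a median of 7829 against 7030, and CPM is scaled to that depth.

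After GM-CSF the members with the least Ly6C tag had the more MHC class II RNA. H2-Aa stood at 2940 CPM in the lower part (47 cells) and at 1294 CPM in the upper part (47 cells), a ratio of 2.27 (interval 2.03 to 2.55). Chil3, a chitinase-like protein of classical monocytes and neutrophils, stood at 217 CPM in the lower and 1008 CPM in the upper part. Split by the MHCII tag instead, the upper part had 5.52-fold more Itgax (100 against 18.1 CPM, interval 2.30 to 16.0), the gene of CD11c, and 6.90-fold less Chil3 (136 against 940 CPM, interval 5.09 to 9.53). Ccr2 differed little in that split, at 642 and 617 CPM (ratio 1.04, interval 0.859 to 1.26). In the steady state the same split by MHCII tag gave 217 against 14.6 CPM of H2-Aa and 235 against 109 CPM of Ace.

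The study had also gated CD115-high cells on their tags into subsets P-I to P-IV, of which P-I was its classical monocyte gate. Of the members, 411 of 442 (93.0%) in the steady state and 123 of 141 (87.2%) after GM-CSF carried the label CD115-, and 30 (6.79%, interval 4.63 to 9.55%) and 15 (10.6%, interval 6.08 to 16.9%) carried P-I. No member was labelled P-II, P-III or P-IV, and the exact interval of each of these shares reached up to 0.831% in the steady state and 2.58% after GM-CSF. From the other side, 30 of 139 P-I cells (21.6%) and 15 of 187 P-I cells (8.02%) lay in cluster 5, fewer than the 44 and 53 in cluster 2. The CD115- members had a median CD115 tag of 3 counts in the steady state and 36 after GM-CSF, and the P-I members 33 and 101. So the label CD115- stood for different raw tag counts in the 2 libraries and not for absence of the receptor gene. Csf1r, the gene of CD115, stood at 619 and 265 CPM in the members of the 2 libraries, with a UMI in 98.4% and 79.4% of them. In the steady state P-I members had 864 CPM of Ly6c2 (753 to 986) and 327 CPM of Ace (261 to 406), and CD115- members 1278 CPM (1239 to 1319) and 164 CPM (150 to 179), while their median Ly6C tags were 949 and 937 counts.

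Few members were in cycle by the deposited phase calls, and this depended on how phases were scored. The calls put 73 of 442 members (16.5%, interval 13.2 to 20.3%) outside G1 in the steady state and 16 of 141 (11.3%, interval 6.63 to 17.8%) after GM-CSF, nearly all in S phase. Cluster 6 had 52.2% and 49.1% outside G1 and cluster 2 had 19.5% and 16.8%. Scored again from the raw counts at full depth, 30 of 442 cells of steady-state cluster 5 (6.79%) and 19 of 297 cells of cluster 6 were outside G1, so the gap between them was not seen. After GM-CSF the new scores put 14 of 141 cells outside G1 in cluster 5 and 54 of 108 in cluster 6. Thinning each cell to 1000 UMIs gave 40.7% and 33.3% for cluster 5, with 37.0% and 64.8% for cluster 6.

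The levels of cell cycle genes need no call per cell. The 18 genes of the G2 and mitosis list summed to 34.0 CPM (28.1 to 40.8) in steady-state cluster 5 and 51.9 CPM in cluster 6, and to 154 CPM (131 to 180) and 744 CPM after GM-CSF. Mki67, the proliferation marker Ki-67, stood at 0.880 and 11.9 CPM in cluster 5, from 3 and 12 UMIs. Ube2c, which charges the anaphase-promoting complex with ubiquitin, stood at 1.17 and 58.5 CPM and gave 59 of the 155 UMIs of the list after GM-CSF. The 18 genes of the S phase list ran the other way in the steady state, at 187 CPM (172 to 202) in cluster 5 and 157 CPM in cluster 6, and stood at 167 CPM (142 to 194) and 376 CPM after GM-CSF. So the word quiescent in the working name matched the mitotic level in the steady state, rank 16 among the clusters of the bundle from the highest. Clusters 2 and 4 then stood at 43.1 and 43.8 CPM. After GM-CSF cluster 5 ranked 9 in the mitotic list, above cluster 2 (112 CPM) and cluster 4 (40.5 CPM), so its mitotic level was not low there. In the S phase list cluster 5 ranked 13 in the steady state. It ranked 17 after GM-CSF, the lowest level of the bundle, with cluster 2 close at 172 CPM. Against cluster 6 in the steady state, cluster 5 was below in the mitotic list and above in the S phase list. After GM-CSF cluster 5 was below cluster 6 in both lists.

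Against cluster 2, cluster 5 had more RNA of Lmna, Sgms2 and 3 genes of the coagulation and matrix list, and less of 5 genes of the type I interferon list and of the chemokine Cxcl9. Among 5980 genes with at least 50 UMIs over both clusters in each library, 36 (0.602%) were at least 2-fold higher in cluster 5 in both libraries and 45 (0.753%) at least 2-fold lower. These percentages are the background for each count below. The median log2 ratio of all genes was 0.01 in the steady state and 0.05 after GM-CSF.

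The 10 genes with the highest ratios were Sgms2, Lmna, Tppp3, Racgap1, Tagln2, Fn1, Plec, F13a1, Stxbp6 and Sept11. Lmna (chr3:88480147-88509956, GRCm38), which encodes lamins A and C of the nuclear envelope, had 83.0 CPM in cluster 5 and 4.59 CPM in cluster 2 in the steady state, a ratio of 18.1 (interval 9.70 to 38.2). After GM-CSF it had 176 and 27.2 CPM, a ratio of 6.45 (4.73 to 8.93). Sgms2, a sphingomyelin synthase, had 94.5 against 11.9 CPM (ratio 7.92, interval 5.31 to 12.3) and then 38.7 against 5.54 CPM (6.98, 3.51 to 15.1). Tppp3, a tubulin-polymerising protein, was at 561 against 140 CPM and at 695 against 176 CPM, ratios of 3.99 and 3.96. Lmna, Sgms2, Tppp3 and Plec, the cytoskeletal linker plectin (256 and 132 CPM), had their highest level of all 17 clusters in cluster 5 in both libraries. After GM-CSF cluster 6 was close in Lmna (164 CPM), Plec (123 CPM) and Sgms2 (33.6 CPM). Outside the bundle Sgms2 was higher, at 149 and 172 CPM in granulocytes and 114 and 120 CPM in neutrophils. Tagln2, an actin-binding protein, was 4.02-fold and 3.67-fold higher than in cluster 2, and Racgap1, a GTPase regulator that acts in cell division, 5.74-fold and 3.73-fold higher. The septin Sept11 was 2.98-fold and 3.07-fold higher, and Stxbp6, a SNARE-binding protein, 3.10-fold and 4.45-fold.

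The coagulation and matrix list held 16 genes, of which 6 passed the minimum, 3 were at least 2-fold higher in cluster 5 and 0 lower (median log2 ratio 1.16 in the steady state and 1.29 after GM-CSF). The 3 were fibronectin, Fn1, at 1617 against 493 CPM in the steady state and 796 against 214 CPM after GM-CSF, F13a1 at 612 against 193 CPM and 39.7 against 9.57 CPM, and versican, Vcan, at 122 against 44.0 CPM and 169 against 42.3 CPM. Timp2 did not differ by 2-fold, with log2 ratios of 0.01 and -0.07.

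The lowest ratios were led by chemokines and interferon-response genes. Cxcl9, a ligand of CXCR3 that interferon gamma induces, had 1.17 CPM in cluster 5 and 72.0 CPM in cluster 2 in the steady state, a 61.4-fold lower level (23.5 to 228). After GM-CSF it had 0 UMIs in cluster 5 and 80.6 CPM in cluster 2, which is at least 27.1-fold lower, set against 3 counts. Cxcl10 had 17.6 against 135 CPM and then 0.992 against 27.2 CPM (1 UMI, 27.4-fold lower with a counting interval of 4.72 to 1103), and 1 cell held 45.0% of its UMIs among the steady-state members. Ifit3, an antiviral protein induced by type I interferon, had 19.7 against 83.0 CPM (4.22-fold lower, 3.17 to 5.68) and 3.97 against 39.8 CPM (10.0-fold, 3.77 to 37.7). Spic, a transcription factor of red pulp macrophages, Cxcl16, the ligand of CXCR6, and Ly6i were between 4.40-fold and 9.81-fold lower in the steady state and between 6.38-fold and 12.2-fold lower after GM-CSF. Serpina3g, a serpin, was 37.5-fold (9.84 to 319) and 25.9-fold lower (6.99 to 217), from 2 UMIs in cluster 5 of each library, and Dnase1l3, a DNase of DCs and macrophages, 27.2-fold (11.2 to 85.9) and 26.9-fold (4.63 to 1083). AW112010, a long non-coding RNA gene in the annotation, and Fam26f were 4.50-fold and 3.85-fold lower in the steady state and 3.94-fold and 3.83-fold lower after GM-CSF.

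Of the 18 genes of the type I interferon list, 17 passed the minimum, 0 were at least 2-fold higher and 5 at least 2-fold lower (median log2 ratio -0.61 and -0.81). The 5 were Cxcl10, Ifit3, Ifit2, Ifit1 and Rsad2, the last at log2 ratios of -1.39 and -1.80. Irf7, which drives interferon genes, had log2 ratios of -0.23 and -0.81 and did not reach 2-fold. In the chemokine ligand list 3 of 6 genes were lower (Cxcl9, Cxcl10, Cxcl16). In the survival list 3 of 9 were lower, namely Bcl2a1a, Bcl2a1b and Bcl2a1d, copies so alike that counting can split their reads. Il1rn and Il1b, the interleukin-1 receptor antagonist and interleukin-1 beta, were the 2 of 4 genes of the IL-1 family list that were lower.

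**Figure D3:**
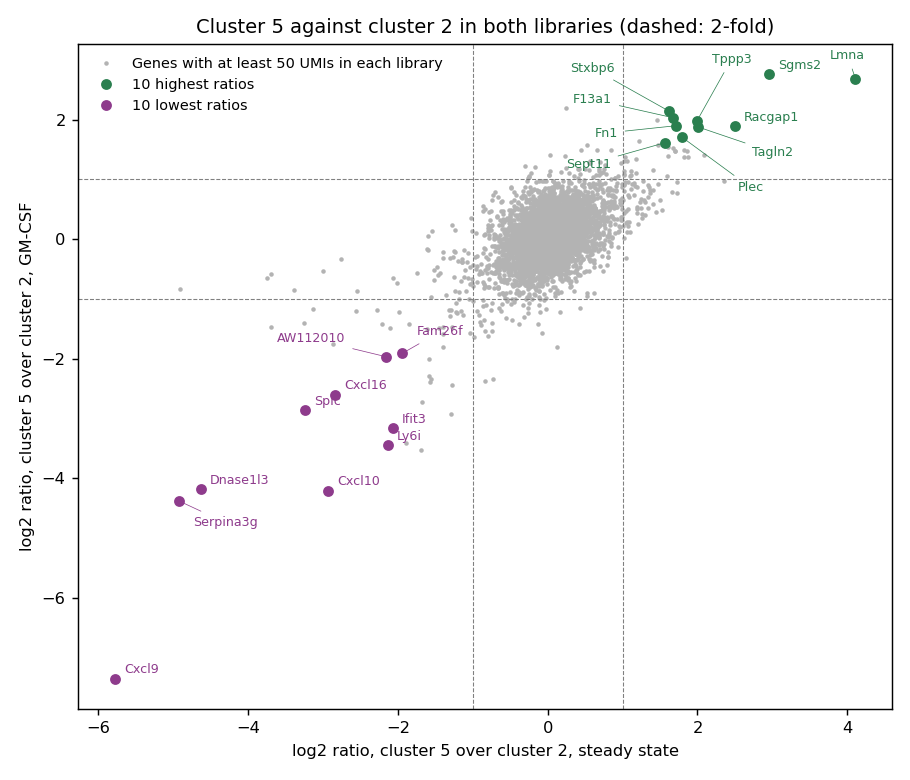
Each point is a gene with at least 50 UMIs over clusters 5 and 2 in each library, placed by its log2 ratio of cluster 5 to cluster 2 in the steady state (x axis) and after GM-CSF (y axis), with dashed lines at 2-fold. The 10 genes with the highest ratios in both libraries (green, Lmna farthest right) and the 10 with the lowest (purple, Cxcl9 farthest down) are named, out of 36 and 45 past 2-fold in both.

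MHC class II RNA separated the clusters by different amounts in the 2 libraries. In the steady state H2-Aa was 13.5-fold lower in cluster 5 than in cluster 2 (90.7 against 1221 CPM, interval 12.0 to 15.2), and after GM-CSF 1.57-fold lower (2113 against 3309 CPM, interval 1.49 to 1.64). H2-Eb1 was 30.2-fold (24.5 to 37.6) and 1.77-fold (1.67 to 1.89) lower. Of the 8 genes of the list past the minimum, 0 were at least 2-fold lower in both libraries (median log2 ratio -2.66 and -0.45). Whether the gap differed between the conditions beyond the spread of mice was not tested, with 1 library each.

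The sequences just upstream of genes that carry these differences are shown so that the interferon and MHC class II elements can be seen. Each run is the 250 bases before the RefSeq start of the gene, on its own strand, 5′ to 3′, from GRCm38.p6, and capitals mark the letters matched. For Ifit3 (chr19:34583279-34583528, + strand) and Cxcl10 (chr5:92348890-92349139, - strand) they mark the interferon-stimulated response element (ISRE), searched on both strands as 2 copies of TTTC with any 2 bases between them.

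Ifit3: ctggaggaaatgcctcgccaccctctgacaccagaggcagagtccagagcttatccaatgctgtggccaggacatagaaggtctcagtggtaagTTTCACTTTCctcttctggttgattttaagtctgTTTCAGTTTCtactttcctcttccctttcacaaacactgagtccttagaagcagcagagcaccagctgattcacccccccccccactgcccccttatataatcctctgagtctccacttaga
Cxcl10: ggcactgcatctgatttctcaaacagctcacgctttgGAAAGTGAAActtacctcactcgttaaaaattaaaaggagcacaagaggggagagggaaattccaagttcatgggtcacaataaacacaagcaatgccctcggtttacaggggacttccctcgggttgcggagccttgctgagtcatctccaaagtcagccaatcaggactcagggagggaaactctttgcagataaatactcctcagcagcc

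Ifit3 had matches at 156 to 147 and at 122 to 113 bases upstream, and Cxcl10 had one at 213 to 204 bases upstream on the opposite strand. Of the 45 genes lower in cluster 5 than in cluster 2, 38 had a promoter in the table and 7 (18.4%) held an ISRE, namely Aif1, Apobec3, Cxcl10, Dpp4, Ifit1, Ifit3 and Rsad2. Of the 36 higher genes, 25 had a promoter and 0 held one. Among all 27025 promoters, 936 (3.46%) held one. A match to GAS, searched as TTCNNNGAA, was found in 4 of the 38 (10.5%) and in 8.13% of all promoters. The match is of letters and says nothing of binding in these cells.

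For H2-Aa (chr17:34287824-34288073, - strand) and H2-Eb1 (chr17:34305617-34305866, + strand) capitals mark the Y box of MHC class II promoters, searched as GATTGG on both strands.

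H2-Aa: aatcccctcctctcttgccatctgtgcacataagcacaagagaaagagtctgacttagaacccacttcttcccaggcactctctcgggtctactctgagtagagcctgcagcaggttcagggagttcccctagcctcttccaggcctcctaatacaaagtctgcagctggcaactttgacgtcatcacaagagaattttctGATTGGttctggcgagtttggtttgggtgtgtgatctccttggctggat
H2-Eb1: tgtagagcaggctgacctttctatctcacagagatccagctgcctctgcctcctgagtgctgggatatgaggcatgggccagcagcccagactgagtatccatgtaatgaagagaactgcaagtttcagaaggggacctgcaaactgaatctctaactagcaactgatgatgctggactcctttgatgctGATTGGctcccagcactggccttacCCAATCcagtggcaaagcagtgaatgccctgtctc

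The Y box of H2-Aa lay at 49 to 44 bases upstream, and H2-Eb1 had one at 60 to 55 bases and a second, on the opposite strand, at 35 to 30 bases. Of the 11 genes of the MHC class II list, 8 had a promoter in the table and 7 (87.5%) held the letters, against 16.6% of all promoters.

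Against cluster 6, cluster 5 had more RNA of MHC class II and of the Ly6C-low marker Ace, and less of F13a1, Vcan and a granule protein gene. Among 4636 genes with at least 50 UMIs, 18 (0.388%) were at least 2-fold higher in cluster 5 in both libraries and 4 (0.0863%) at least 2-fold lower. H2-Aa had 90.7 against 10.5 CPM in the steady state, a ratio of 8.67 (interval 5.67 to 13.9), and 2113 against 427 CPM after GM-CSF, a ratio of 4.94 (4.42 to 5.54). H2-Eb1, H2-Ab1 and Cd74 had log2 ratios of 2.52, 2.25 and 1.85 in the steady state and 2.26, 2.05 and 1.90 after GM-CSF. These 4 were among the 7 genes of the MHC class II list past the minimum, of which 0 were lower (median log2 ratio 1.85 and 1.90).

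Ace, the marker of Ly6C-low monocytes, was higher in cluster 5 than in cluster 6. It had 176 against 19.1 CPM in the steady state, a ratio of 9.20 (6.72 to 12.9), and 115 against 54.4 CPM after GM-CSF, a ratio of 2.11 (1.49 to 3.03). It was the 1 of 8 genes of the non-classical monocyte list past 2-fold in both libraries (median log2 ratio 1.27 and 0.45). Nr4a1, the nuclear receptor that non-classical monocytes depend on, had 635 against 270 CPM in the steady state, a ratio of 2.35 (2.14 to 2.58), and a ratio of 1.45 (1.10 to 1.93) after GM-CSF. Among the other higher genes, Tppp3 was 6.07-fold and 2.93-fold higher, and Cyp51, an enzyme of cholesterol synthesis, 4.48-fold and 3.08-fold. Adrbk2, a kinase of G protein-coupled receptors, Lpp, Amz1 and Bcl2a1b were between 2.47-fold and 4.95-fold higher in the steady state and between 2.46-fold and 3.66-fold higher after GM-CSF.

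The 4 lower genes were F13a1, Vcan, Lcn2 and the long non-coding RNA gene AI839979. F13a1 had 612 against 1228 CPM and then 39.7 against 217 CPM, 2.01-fold and 5.46-fold lower, so it lay at the 2-fold limit in the steady state. Vcan was 2.03-fold and 2.27-fold lower, AI839979 2.11-fold and 2.53-fold. Lcn2, the iron-binding lipocalin of neutrophil granules, had 8.22 against 16.8 CPM and 14.9 against 534 CPM, of which 1 cell held 47.3% in cluster 6. Slpi, an inhibitor of neutrophil elastase (1.93-fold lower and, from 3 UMIs, 35.8-fold with a counting interval of 11.9 to 177) and Prtn3, proteinase 3 (1.94-fold and 6.92-fold), missed 2-fold in the steady state. Markers of neutrophils moved with these values, since their 12 genes summed to 801 CPM in cluster 6 and 546 CPM in cluster 5 in the steady state and to 4108 and 248 CPM after GM-CSF, and their part in the result was not tested.

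Among genes that separated cluster 6 from cluster 4, the cluster low in Ly6c2, by at least 2-fold, cluster 5 mostly had a level between both, with a median position nearer to cluster 6. In the steady state 363 of 472 genes higher in cluster 6 (76.9%) and 525 of 601 genes higher in cluster 4 (87.4%) had a level in cluster 5 between both. After GM-CSF the counts were 189 of 220 (85.9%) and 328 of 395 (83.0%). On a log2 scale from 0 at cluster 6 to 1 at cluster 4, the median position of cluster 5 was 0.138 and 0.290 for these gene sets in the steady state and 0.305 and 0.335 after GM-CSF, while that of cluster 2 was 0.336 and 0.417, and then 0.489 and 0.314. Because the genes were picked as far apart in clusters 6 and 4, a level between both is partly fixed by that choice, and the position is no order in time.

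Within cluster 5, the members after GM-CSF had far more MHC class II RNA and less RNA of classical monocyte, interferon-response, chemokine and immediate early genes than the steady-state members. Among 7086 genes with at least 50 UMIs over both libraries, 230 (3.25%) were at least 2-fold higher after GM-CSF and 478 (6.75%) at least 2-fold lower. The median log2 ratio of all these genes was -0.08, and with that median set to 0 the counts were 303 higher and 393 lower. In this comparison condition and library are the same thing and cannot be told apart.

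The 3 highest ratios belonged to genes nearly absent from the steady-state members. Plxdc2, a plexin-domain membrane protein (chr2:16356304-16755839, GRCm38), had 0 UMIs in the steady state and 148 UMIs after GM-CSF, 147 CPM, which is at least 167-fold higher set against 3 counts. The 148 UMIs lay in 76 of 141 members (53.9%), against 0 of 39 T cells. Spint1, an inhibitor of membrane serine proteases, had 0.293 CPM from 1 UMI and 139 CPM from 140 UMIs (ratio 473, interval 83.6 to 18829), and Htra3, a serine protease, 0.293 CPM from 1 UMI and 119 CPM from 120 UMIs (ratio 406, interval 71.4 to 16158). The same genes stood at 175, 132 and 79.6 CPM in cluster 2 and at 41.7, 102 and 64.9 CPM in cluster 6 after GM-CSF. The higher level of Plxdc2 was thus seen in all 3 of these clusters, which come from the same 2 libraries.

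H2-Eb1, H2-Aa and H2-Ab1 of the MHC class II list followed among the 10 highest ratios, with the mitotic gene Ube2c (log2 ratio 5.48) between H2-Eb1 and H2-Aa. H2-Eb1 went from 27.3 to 1263 CPM, 46.3-fold higher (37.5 to 57.8), H2-Aa from 90.7 to 2113 CPM, 23.3-fold (20.7 to 26.4), and H2-Ab1 from 98.3 to 1992 CPM, 20.3-fold (18.0 to 22.8). Of the 11 genes of the list, 8 passed the minimum, 7 were at least 2-fold higher and 0 lower, with a median log2 ratio of 3.33. Ciita, the transactivator that switches these genes on, went from 10.9 to 93.3 CPM, H2-DMb1 and H2-DMa, which load peptide, from 60.7 to 345 CPM and from 255 to 783 CPM, and Cd74 from 438 to 5218 CPM. Ctss, the protease that trims the Cd74 product, was the exception at 1896 and 1206 CPM. Summed over the list, cluster 5 had 2883 CPM in the steady state and 13065 CPM after GM-CSF, the 15th and 14th highest of the 17 clusters, with the B cell and conventional DC lists at 7.94 and 9.92 CPM in the GM-CSF members. The higher H2-Aa was not seen in cluster 5 alone, as it went from 10.5 to 427 CPM in cluster 6 and from 1221 to 3309 CPM in cluster 2. In clusters 0, 3, 9 and 14 H2-Aa was lower after GM-CSF. The list also summed to 354 and 648 CPM in T cells and to 206 and 364 CPM in granulocytes, and to 156 and 197 CPM in neutrophils.

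Cd24a, a surface glycoprotein, went from 5.57 to 114 CPM, Hist1h2bc, a histone H2B gene, from 7.63 to 117 CPM, and Fabp5, a fatty acid carrier, from 35.5 to 453 CPM, 12.8-fold (10.4 to 15.7). In the lipid handling list 3 of 8 genes were higher, namely Fabp5, Lpl (lipoprotein lipase, 54.9 to 330 CPM) and Abcg1 (a cholesterol exporter, 58.1 to 139 CPM). Apoe, Fabp4 and Cd36 were the 3 lower ones. Apoe, the lipid carrier apolipoprotein E, went from 1526 to 10.9 CPM, 140-fold lower (78.1 to 280), and Fabp4 from 15.3 CPM to 0 UMIs, at least 5.13-fold lower. Apoe was lower after GM-CSF in each of the 17 clusters, from 1833 to 20.2 CPM in cluster 2 and from 1402 to 20.8 CPM in cluster 6, and went from 152 to 2.23 CPM in neutrophils and from 165 to 61.7 CPM in granulocytes. In B cells it stood at 790 and 1749 CPM.

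Hspa1b and Hspa1a, of the immediate early and heat shock list, were among the 10 lowest ratios. Hspa1a and Hspa1b, copies of the inducible HSP70 gene that counting can split, summed to 834 CPM in the steady state and 8.93 CPM after GM-CSF, where 1 cell held 57.1% of the Hspa1a UMIs. Of the 14 genes of the list, all past the minimum, 10 were at least 2-fold lower and 0 higher (median log2 ratio -1.91). Fos went from 1407 to 157 CPM and Jun, its partner in AP-1, from 549 to 93.3 CPM, while Hspa8, the constitutive heat shock protein, stood at a log2 ratio of -0.01. These genes also respond to handling of cells, and the list moved with the library in other cell types. It summed to 11085 and 4796 CPM in cluster 5, to 8345 and 3458 CPM in B cells and to 15825 and 8869 CPM in granulocytes. The difference was smaller in T cells (5699 and 4518 CPM, 1.26-fold) and in neutrophils (2549 and 1875 CPM, 1.36-fold). The part of sample handling was not tested.

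Thbs1, the matrix protein thrombospondin 1, went from 203 CPM to 1.98 CPM (2 UMIs, a 102-fold lower level with a counting interval of 28.2 to 847). It went from 173 to 2.02 CPM in cluster 2 and from 357 to 9.27 CPM in cluster 6, so the lower level of Thbs1 was not seen in cluster 5 alone, and in neutrophils it stood at 325 and 196 CPM. The coagulation and matrix list had 7 of 11 genes at least 2-fold lower and 0 higher (median log2 ratio -1.06), among them F13a1, Mmp8 (a neutrophil collagenase, 88.0 to 11.9 CPM) and F5 (coagulation factor V, 21.1 to 3.97 CPM). Slpi went from 114 to 2.98 CPM and Cd177, a neutrophil and monocyte surface protein, from 126 to 5.95 CPM. Rnf144a, a ubiquitin ligase, had 94 UMIs (27.6 CPM) in the steady state and 0 after GM-CSF, at least 9.27-fold lower. H2-Q6, a non-classical MHC class I gene whose reads are shared with H2-Q7, went from 20.2 CPM to 0, at least 6.80-fold lower.

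Classical monocyte genes beyond the defining 3 were lower together. Of 12 listed genes 11 passed the minimum, 8 were at least 2-fold lower and 0 higher (lowest log2 ratio -4.29 for Cd177). Chil3 went from 2877 to 512 CPM and Tmem176b, a membrane protein of monocytes and DCs, from 151 to 16.9 CPM. Plac8 stood at a log2 ratio of -0.05 and Vcan at 0.47. Non-classical monocyte genes were lower as well, 7 of 11 by at least 2-fold, with Nr4a1 going from 635 to 138 CPM, Cx3cr1, the fractalkine receptor, from 412 to 109 CPM and Spn, the sialophorin CD43, from 233 to 76.4 CPM. Ear2, an eosinophil-associated ribonuclease also made by monocytes, was the 1 that was higher, from 84.8 to 305 CPM.

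Interferon-response genes were lower, with 10 of 17 at least 2-fold lower and 0 higher (median log2 ratio -1.28). Cxcl10 went from 17.6 to 0.992 CPM, Usp18, a brake on interferon signalling, from 28.5 to 4.96 CPM, Rsad2, the antiviral viperin, from 32.3 to 5.95 CPM, and Irf7 from 203 to 41.7 CPM. The list summed to 3362 and 1415 CPM in cluster 5, and also to 1618 and 757 CPM in B cells and to 3825 and 1521 CPM in granulocytes. In T cells it summed to 1598 and 1173 CPM (1.36-fold lower) and in neutrophils to 656 and 422 CPM (1.55-fold lower). Of the chemokine ligands 5 of 7 were lower and 0 higher. Ccl2, the ligand of CCR2, went from 59.6 to 1.98 CPM, with both GM-CSF UMIs in 1 cell, and Cxcl2 and Ccl3, which draw neutrophils and monocytes, from 151 to 18.8 CPM and from 108 to 22.8 CPM.

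Receptors moved in both directions. Among 8 chemokine and related receptors 2 were higher, with Ltb4r1, the leukotriene B4 receptor, going from 116 to 350 CPM, and 5 were lower, Fpr2, C5ar1, Ccr1, Cx3cr1 and Cxcr4. C-type lectins had 3 of 10 genes higher, among them Clec4n, the Dectin-2 gene (15.8 to 91.3 CPM), and Mrc1, the mannose receptor (6.75 to 38.7 CPM), and 3 lower, among them Clec4d (30.8 to 2.98 CPM) and Clec4e, the Mincle gene (95.4 to 20.8 CPM). Fcgr2b, the inhibitory Fc receptor, went from 168 to 516 CPM and Fcgr1, the high-affinity one, from 111 to 24.8 CPM. Itgax went from 9.68 to 68.5 CPM, 7.07-fold higher (4.61 to 11.1), the same direction as the CD11c tag. Csf1r was 2.34-fold lower (2.06 to 2.66) while the CD115 tag on its product had the higher count.

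The RNA of the GM-CSF receptor itself differed little. Csf2ra, the alpha chain, stood at 244 and 168 CPM, a ratio of 0.687 (0.579 to 0.811), and Csf2rb, the shared beta chain, at 168 and 205 CPM, a ratio of 1.22 (1.04 to 1.44). Stat5a stood at 49.0 and 48.6 CPM. Of 9 genes of the receptor and STAT5 feedback list, 0 were at least 2-fold higher and 2 lower, Pim1, a kinase gene that STAT5 targets (608 to 231 CPM), and Socs3, a cytokine signal inhibitor (140 to 65.5 CPM). Among 16 transcription factors of monocytes and DCs, Batf3 was the 1 that was at least 2-fold higher (55.2 to 151 CPM) and 6 were lower, with Cebpb going from 2100 to 729 CPM. Irf4 stood at 31.4 and 40.7 CPM. In the survival list the Bcl2a1 copies were higher, Bcl2a1b from 20.2 to 154 CPM, and Bcl2 lower, from 35.2 to 1.98 CPM.

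Toll-like receptor genes were lower in 4 of 9 cases and higher in 0, with Tlr7, a sensor of single-stranded RNA, going from 147 to 52.6 CPM and Cd14, the co-receptor for endotoxin, from 101 to 43.7 CPM. Of 13 adhesion genes, Itgax and Cd9 (a tetraspanin, 34.0 to 157 CPM) were higher and 1 was lower. Itgam, which encodes the CD11b used for sorting, stood at a log2 ratio of -0.84.

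Several lists hardly differed and give a scale for the rest. None of the 15 glycolysis genes and none of the 8 S100 genes past the minimum reached 2-fold in either direction, with median log2 ratios of 0.30 and 0.09. Of 80 nuclear respiratory chain genes 1 was lower and 0 higher (median 0.13), and of 84 ribosomal protein genes 4 were higher and 0 lower (median 0.34).

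**Figure D4:**
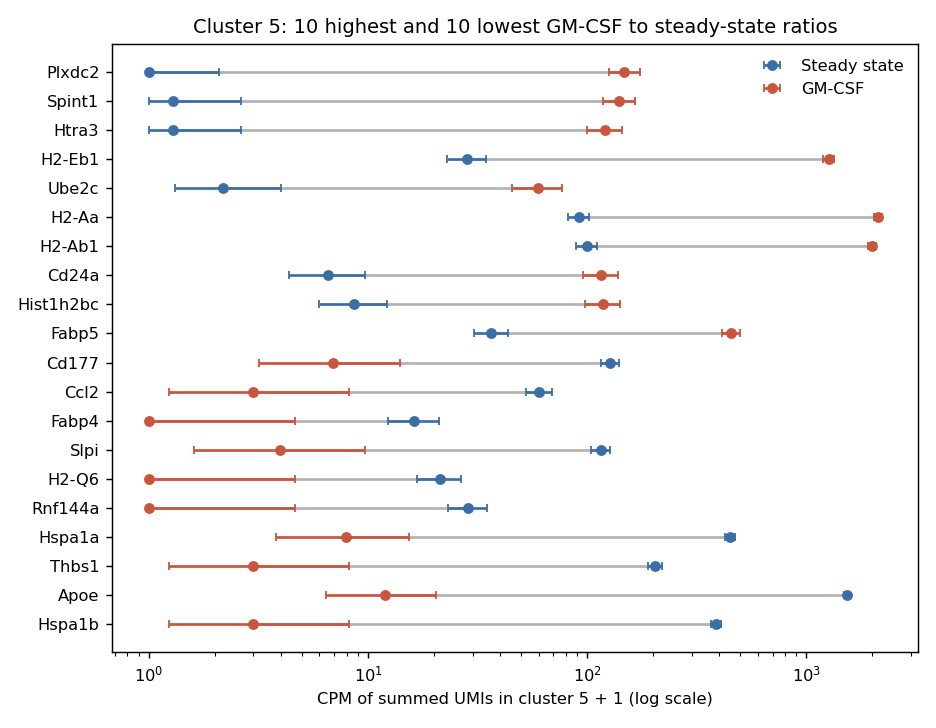
CPM of summed UMIs in cluster 5 plus 1, on a log scale, in the steady state (blue) and after GM-CSF (red) for the 10 genes with the highest and the 10 with the lowest ratio, with exact Poisson intervals as bars. Plxdc2 goes from 0 to 147 CPM and Hspa1b from 387 to 1.98 CPM, and the intervals of the 2 libraries are apart for each of the 20 genes.

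**Figure D5:**
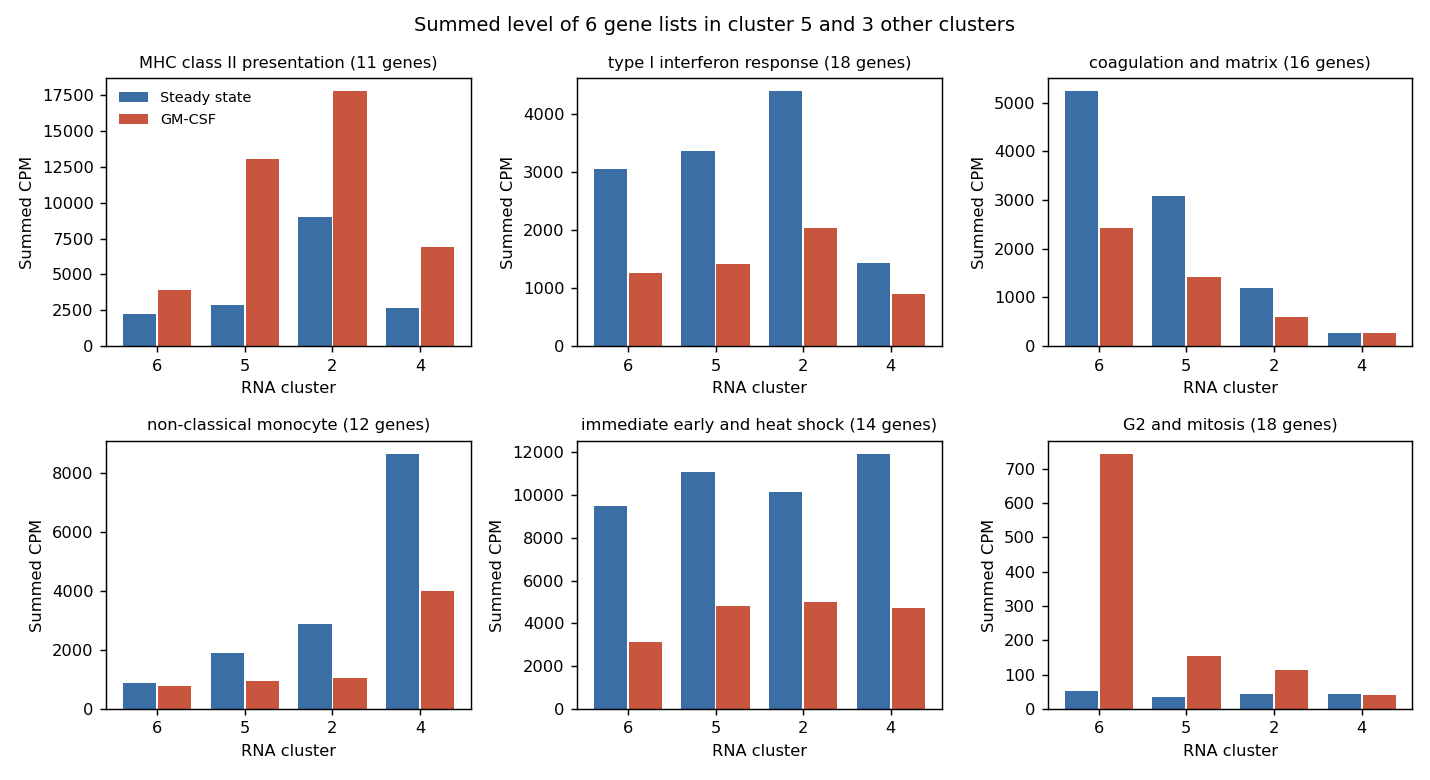
Summed CPM of 6 gene lists in RNA clusters 6, 5, 2 and 4 in the steady state (blue bars) and after GM-CSF (red bars), each panel with its own axis from 0. Cluster 5 lies between clusters 6 and 2 in the MHC class II and the coagulation and matrix lists in both libraries, and its mitotic list (34.0 and 154 CPM) is below that of cluster 6 in both.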

How the data were processed

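The authors made the deposited UMI counts with Cell Ranger 3.0.2 on mm10, per the submitters' processing notes, and deposited tag counts beside them. They filtered and integrated the cells and clustered them with Seurat 3.6.0. Their deposited annotation gave the RNA cluster, subset and phase (category labels, unit other), mitochondrial percent and phase score of each cell. Here the raw counts of a cluster's cells were added up within each library and scaled to the cluster's total (CPM). Log2 ratios had 0.5 counts added, and genes needed 50 UMIs over both sides. No test was run, since each condition was 1 library. Named were the 3 markers and tag genes, the 10 highest and 10 lowest ratios of each comparison, and up to 4 leading members of each list, with others that a list needed, and a few genes under this rule are not reported here. The members and lists were chosen with earlier results of these data known. The scripts were tested on simulated data. Coordinates came from GENCODE (GRCm38) and promoters from RefSeq (GRCm38.p6). Doublets were called with Scrublet in scanpy 1.11.5. Python 3.11.15, pandas 2.3.3 and SciPy 1.17.1 were used.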

Additional observations from a re-analysis of the deposited data

How the results depend on the processing

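No paired analysis was possible because each condition was 1 library. Of 172 values of the main results under alternative settings, 118 stayed close to the main value, 50 moved and 4 reversed. Close meant inside the exact interval of a share or pair share, or within 1.5-fold for a count of genes. Of 1020 values of named genes, 67 moved beyond the counting interval of the ratio and 0 changed direction. With each tag taken as a percent of the cell's 5 tags, 4 pair shares crossed 50%, namely CD115 against cluster 2 after GM-CSF (53.9%) and against cluster 6 in the steady state (52.1%), and CD301b against cluster 2 after GM-CSF (51.6%) and against cluster 6 in the steady state (53.2%). Others moved without crossing, CD11c against cluster 6 to 58.8%, Ly6C to 68.3% against cluster 2 and 38.2% against cluster 6, and MHCII against cluster 6 to 65.9%, all in the steady state, and CD301b against cluster 6 to 47.8% after GM-CSF. A percent of tags follows Ly6C, which held most steady-state tag counts, by construction. Over all CD11b+ cells the share of cluster 5 was 9.16% and 2.07%, and with at most 5% mitochondrial UMIs it was 1.83% after GM-CSF. Of CD115-high members 96.8% and 83.3% were P-I. Rescored phases put 6.79% outside G1 at full depth in the steady state, and 40.7% and 33.3% after thinning. Counts of genes followed the minimum and the fold by construction. In the order 5 above 2, 5 below 2, 5 above 6, 5 below 6, higher and lower after GM-CSF, they were 196, 260, 182, 190, 1707 and 1256 with no minimum, 144, 112, 76, 25, 793 and 1282 at 1.5-fold, 9, 16, 5, 0, 65 and 160 at 3-fold, and 11, 4, 3, 0, 50 and 195 with cells thinned to 1000 UMIs, where fewer genes passed the minimum. A minimum of 20 UMIs gave 70 (5 below 2), 38 and 10 (against 6) and 455 (higher after GM-CSF), and 200 UMIs gave 14, 12, 7 (5 above 6), 61 and 230. At most 5% mitochondrial UMIs left 19 and 26 genes against cluster 2, of which the cause was not tested. For GM-CSF that setting gave 305 higher and 638 lower genes, which held 139 of the 230 and 330 of the 478 main calls. P-I cells alone gave 43 and 127 after GM-CSF, from fewer cells.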
